A study of Mus musculus with 18 samples.

Results

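Lenses of Dbl transgenic mice were compared with lenses of wild type (wt) mice at 42 days of age, the oldest age of the series, on 6 of its 18 Affymetrix Murine Genome U74Av2 arrays. The members are the 3 arrays labelled as lenses of 42 day old Dbl mice and the 3 labelled as lenses of 42 day old wt mice; the arrays of 2 and 14 days serve only to estimate the spread and to set the size of a difference beside that at earlier ages. Each array holds RNA of 1 pool of 4 to 8 lenses, in which epithelium and fiber cells were measured together. The Dbl mice carry the Dbl oncogene cDNA under the mouse metallothionein promoter, which is active in many cell types and not in the lens alone. It was introduced in FVB/N embryos, followed by crosses to Balb/c. For the wt mice, neither strain nor relation to the transgenic litters is stated, so that genotype and strain cannot be told apart. The signal of the transgene was not analysed here.

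Dbl is the founding member of a family of guanine nucleotide exchange factors that act on the actin cytoskeleton, on growth and on survival. A normal lens is an epithelial layer whose cells leave the cycle at the equator, elongate into fiber cells, fill with crystallins and lose their organelles. Fiber cells also build a beaded filament cytoskeleton, membranes rich in aquaporin 0 and connexins, and a capsule of laminin and type IV collagen encloses the whole organ. The lens has no vessels and, in health, few immune cells.

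Signals are given in arbitrary units after each array was scaled to a trimmed mean of 500, in the order of replicates 1 to 3. Changes are on the log2 scale, Dbl over wt, with their standard error (SE) from limma, each p-value is adjusted over all 12422 probe sets (Benjamini-Hochberg), and a probe set is called at an adjusted p under 0.05. No detection calls were used, so a signal under 129, the mean of the 6 arrays' 40th percentiles, is called near background, and a fold change against such a signal is not exact. For some such genes the change is also given after every signal under its array's 40th percentile was raised to it. That floor was 141, 159 and 120 on the wt arrays and 110, 115 and 128 on the Dbl arrays. A gene under it on all 6 arrays then has a change of -0.24, which the floor alone sets. A rank or permutation test of 3 arrays against 3 cannot give an exact p below 0.1, so single genes were not tested that way.

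The arrays differ in ways the labels do not explain. Dbl 42 days replicate 2 correlated best with a Dbl array of 2 days (r = 0.951 over 6565 probe sets, against 0.709 to 0.795 with the other Dbl arrays of 42 days), and Dbl 42 days replicate 1 and Dbl 2 days replicate 2 correlated best with each other (r = 0.958). Both replicate 2 arrays thus resembled the other age. Whether their labels were exchanged was not tested, and the labels were kept. An exchange would change every Dbl value of 42 days that includes replicate 2. Some wt arrays also correlated best with another age. For wt 42 days replicate 1 it was wt 2 days replicate 1 (r = 0.908, against at most 0.906 in its own group). For wt 2 days replicates 1 and 3 it was a wt array of 14 days (r = 0.914 for each). The replicate 3 arrays of 42 days had 5'/3' Gapdh ratios, a measure of RNA integrity, of 0.294 (wt) and 0.323 (Dbl), where the other 4 arrays of 42 days had ratios of 1.13 to 1.45. Replicate 1 of either genotype was deposited at a trimmed mean of 500 and replicates 2 and 3 at 24.2 to 69.8. Results are therefore given with and without Dbl 42 days replicate 2 and the replicate 3 arrays of 42 days. The part of age labels, RNA integrity or deposited scale in the results was not tested.

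Across all probe sets, 22 were called higher in Dbl lenses (0.177% of those tested) and 74 lower (0.596%). They belong to 18 higher and 61 lower genes with a symbol of their own. Counted once per gene, by the probe set of highest mean signal, 13 of 8251 genes were higher (0.158%) and 54 lower (0.654%). Lens structural genes were among the most strongly lowered, while a chemokine, macrophage genes, a matrix protein and an actin-binding peptide were among those raised. On each of the 96 called probe sets the 3 Dbl arrays lay wholly on one side of the 3 wt arrays. Over all genes, 745 (9.03%) did not overlap with Dbl higher and 1101 (13.3%) with Dbl lower. Over all probe sets the median change was -0.18 on the log2 scale, and scaling to the median or quantile normalization moved it by 0.15 or 0.19 and turned the split of 22 higher to 74 lower into 27 to 40 or 30 to 60. The study asked for means that differ at least 1.5-fold and for a Mann-Whitney U test. With no overlap of the groups, the smallest U that 3 against 3 arrays allow, in place of that test, 809 probe sets passed higher (6.51%) and 1639 lower (13.2%). At an unadjusted p under 0.05, 393 of the 8251 genes were higher (4.76%) and 793 lower (9.61%), the background for such counts below.

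**Figure D1:**
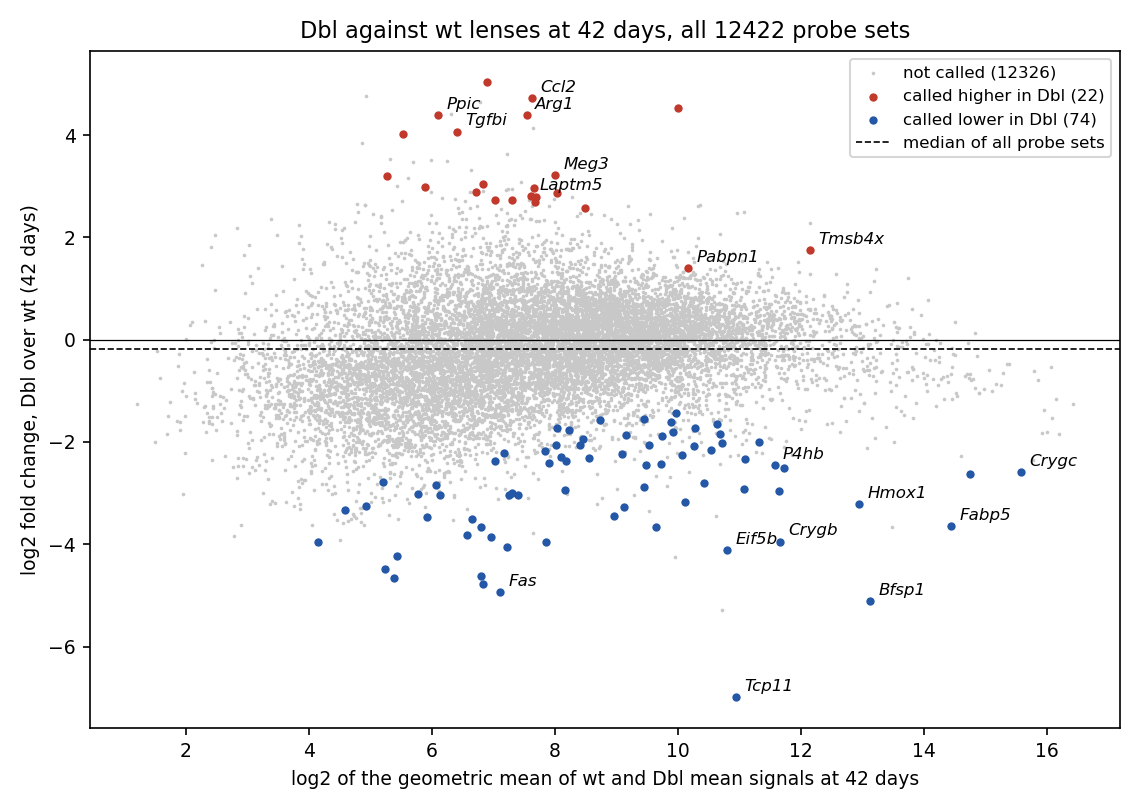
Log2 fold change of Dbl over wt at 42 days (y axis) against the log2 of the geometric mean of both groups' mean signals (x axis), 1 point per probe set. The 22 probe sets called higher are red, the 74 called lower are blue and the rest are grey. Some uncalled probe sets changed as much as called ones. The dashed line marks the median of -0.18, and lens genes such as Crygc and Fabp5 are at the bright end.

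The calls depended on single arrays. Leaving out Dbl 42 days replicate 2 left 11 probe sets higher and 48 lower, 41 of these 59 shared with the fit to all arrays. As genes, these were 8 higher (0.0970%) and 36 lower (0.436%). Without both replicate 3 arrays 1 was higher and 2 were lower. Without all 3 of these arrays limma called 0 probe sets, with 207 higher and 1170 lower at an unadjusted p under 0.05. Of the single arrays, wt replicate 2 weighed most: without it 1 was higher and 1 lower. There were 3 higher and 4 lower without wt replicate 1, 11 and 19 without wt replicate 3, 5 and 11 without Dbl replicate 1, and 13 and 45 without Dbl replicate 3. Leaving out Dbl 2 days replicate 2 along with Dbl 42 days replicate 2 gave 22 higher and 82 lower. All 96 called probe sets kept their direction in each of these fits, which the lack of overlap of their groups fixed in advance. With the replicate number as a block within each age, the fit called 50 probe sets higher and 157 lower, among them 85 of the 96. Counted as genes, that fit called 35 higher (0.424%) and 116 lower (1.41%).

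**Figure D2:**
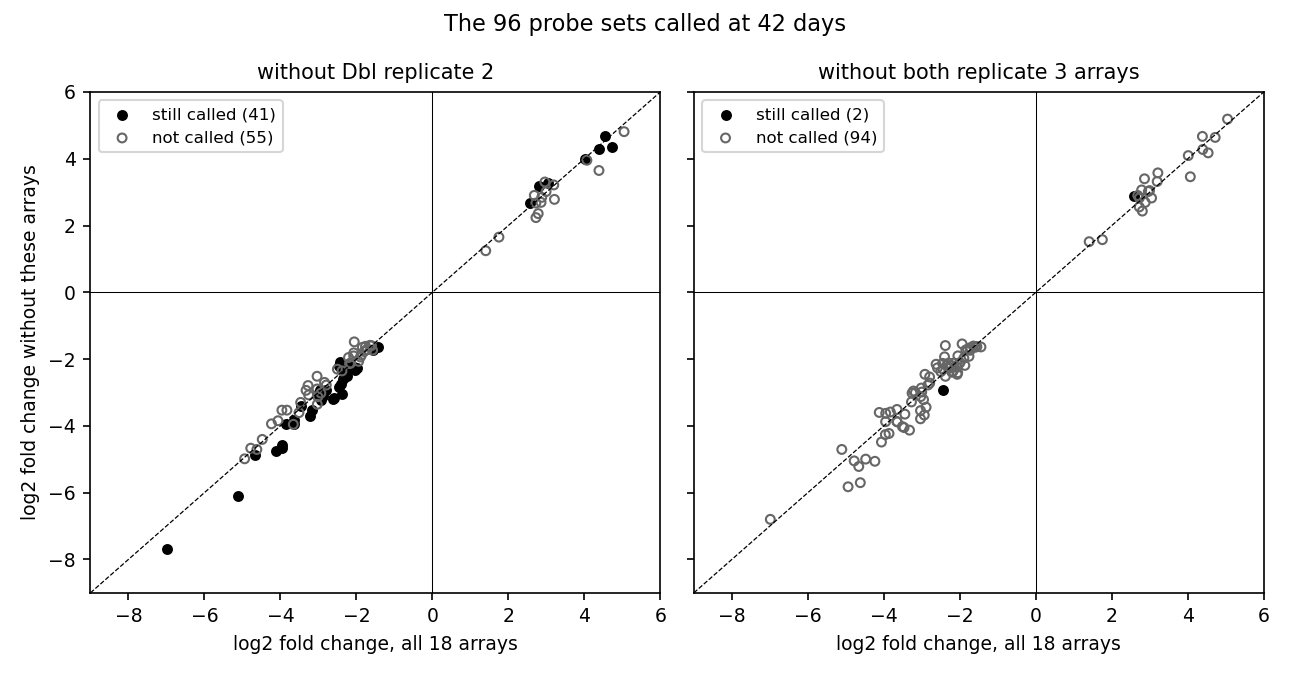
Log2 fold change of the 96 called probe sets without Dbl replicate 2 (left) or without both replicate 3 arrays (right) on the y axis, against the value from all 18 arrays on the x axis; the dashed line marks equal values. Every point keeps its sign, which follows from the lack of overlap of the groups. Of the 96, 41 are still called (filled) on the left and 2 on the right.

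The crystallins, the soluble proteins that give the lens its refraction, read lower in Dbl lenses. Of 11 measured genes of the list 2 were called lower, Crygb and Crygc, and 0 higher. The list's median log2 fold change was -1.82, against -0.09 over all genes, and it was -2.15 without Dbl replicate 2 and -0.66 after quantile normalization. The 3 Dbl arrays did not overlap the wt arrays for 10 of the 11 genes with Dbl lower and for 1 with Dbl higher. The summed signal of the list was 771910, 1249400 and 734500 on the wt arrays and 195410, 406780 and 229550 on the Dbl arrays, so that the highest Dbl array, replicate 2, lay below the lowest wt array. In bulk RNA, fewer fiber cells and less crystallin RNA per fiber cell cannot be told apart.

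The genes for gamma-crystallins A to F form a cluster on chromosome 1 and are known for their transcription in fiber cells. Their promoters are shown because the called crystallins belong to this family and because of a run of letters they share. The sequences are those of RefSeq for GRCm38.p6, 250 bases before and 50 after the gene's start, on the strand of the gene (here the minus strand), with the shared run in capitals.
Crygb, chr1:65082241-65082540: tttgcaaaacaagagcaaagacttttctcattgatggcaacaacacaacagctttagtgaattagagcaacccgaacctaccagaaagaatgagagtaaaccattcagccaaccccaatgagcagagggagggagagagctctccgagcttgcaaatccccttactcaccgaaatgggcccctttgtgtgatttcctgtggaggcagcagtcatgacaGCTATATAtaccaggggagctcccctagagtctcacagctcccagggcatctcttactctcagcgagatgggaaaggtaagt
Crygc, chr1:65073483-65073782: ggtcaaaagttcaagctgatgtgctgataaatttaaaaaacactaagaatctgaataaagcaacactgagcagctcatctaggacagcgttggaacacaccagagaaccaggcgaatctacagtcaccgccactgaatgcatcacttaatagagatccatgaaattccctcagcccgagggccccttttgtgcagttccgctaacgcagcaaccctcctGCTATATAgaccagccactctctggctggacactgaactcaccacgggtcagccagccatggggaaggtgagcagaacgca
Cryge, chr1:65051114-65051413: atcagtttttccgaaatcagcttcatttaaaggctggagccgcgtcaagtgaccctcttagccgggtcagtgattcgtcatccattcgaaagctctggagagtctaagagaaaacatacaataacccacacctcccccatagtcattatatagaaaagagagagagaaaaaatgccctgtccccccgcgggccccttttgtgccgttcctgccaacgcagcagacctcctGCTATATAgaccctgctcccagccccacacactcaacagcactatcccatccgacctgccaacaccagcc
The run GCTATATA, which contains the letters TATATA of a TATA box, begins 32 bases before the start in Crygb, 31 in Crygc and 20 in Cryge. It was picked as the longest run of letters held by the promoters of all 5 gamma-crystallin genes looked at (also Crygd and Crygf). Its presence in these 5, and that of TATATA within it, was thus fixed in advance and is no test of enrichment. Searching both strands, it was in 165 of 32851 promoters of the same length (0.502%). TATATA alone was in the same 5 and in 5.67% of all promoters. The letters TGCTGA, part of the element bound by Maf factors, were in 1 of the 5, that of Crygc, and in 19.5% of all promoters.

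Crygb was measured by a pair of probe sets, and both were called lower. The first read 56351, 80556 and 47589 on the wt arrays and 10501, 21843 and 4020.5 on the Dbl arrays, a log2 fold change of -2.62 ± 0.55 (SE; adjusted p = 0.0335). The other, of a kind that can match several members of a family, read 10294, 13758 and 10611 (wt) against 535, 1742 and 436 (Dbl), a change of -3.95 ± 0.69 (adjusted p = 0.0182). In both, Dbl replicate 2 was the highest Dbl array and still under every wt array. Crygc (chr1:65071525-65073532) read 91377, 147450 and 92627 on the wt arrays against 14560, 40263 and 9793 on the Dbl arrays, and its change was -2.59 ± 0.55 (adjusted p = 0.0351). Without Dbl replicate 2 the changes of Crygb and Crygc were -3.21 and -3.17, and both were still called. Both calls were lost without both replicate 3 arrays (adjusted p = 0.133 for the first probe set of Crygb, 0.114 for the second and 0.167 for Crygc). With median scaling the first of Crygb (adjusted p = 0.0660) and Crygc (0.0764) were not called, nor with quantile normalization (0.0722 and 0.154), while the second of Crygb was.

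Cryge had 1 of its 4 probe sets called, at 855, 1532 and 1133 on the wt arrays and 176, 355 and 226 on the Dbl arrays (-2.24 ± 0.37, adjusted p = 0.0120). Its other probe sets had log2 fold changes of -1.80, -1.54 and -2.48 and were not called, but were with the replicate block (adjusted p = 0.0143, 0.0183 and 0.0265). Among the other crystallins, Crygs had a log2 fold change of -1.82 ± 0.44 (adjusted p = 0.0565) and Cryab, a small heat shock protein that keeps other crystallins in solution, one of -2.12 ± 0.51 (adjusted p = 0.0593). Cryaa, its partner subunit, read 106490, 183970 and 114060 on the wt arrays and 36521, 67610 and 66117 on the Dbl arrays (-1.26 ± 0.42, adjusted p = 0.161), a separation without overlap that was not called. With the replicate block 8 crystallin genes were called lower, among them Cryaa, Crygs and Cryab with adjusted p = 0.0478, 0.0145 and 0.00671. Crym, which binds thyroid hormone and is a crystallin in marsupials, was the exception in direction, with 425, 867 and 324 on the wt arrays and 3156, 3015 and 2887 on the Dbl arrays (2.61 ± 1.58, adjusted p = 0.458).

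Of the fiber cell genes, Bfsp1 and Fabp5 were called lower. Of 10 measured genes 2 were called lower and 0 higher, with a median log2 fold change of -2.71, and 5 did not overlap. Bfsp1 (chr2:143826528-143915219), which encodes filensin of the beaded filament, read 41328, 46853 and 33622 on the wt arrays and 607, 4689.7 and 560.1 on the Dbl arrays, a change of -5.11 ± 0.96 (adjusted p = 0.0217). Its wt signals differed by less than 1.5-fold, whereas Dbl replicate 2 stood well above the other Dbl arrays, and without it the change was -6.11. Fabp5 (chr3:10012585-10016610), a fatty acid binding protein abundant in lens, read 55366, 68344 and 95220 against 2389, 7298 and 10561 (-3.64 ± 0.65, adjusted p = 0.0186).

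Mip, the aquaporin 0 of fiber membranes, and Gja3, the connexin 46 of fiber gap junctions, were not called with all arrays and were called lower without Dbl replicate 2. Mip read 31380, 34948 and 18509 on the wt arrays and 1463, 11697 and 576 on the Dbl arrays, a change of -3.67 ± 0.96 (adjusted p = 0.0791), and -4.89 without Dbl replicate 2 (adjusted p = 0.0193); with the replicate block its adjusted p was 0.0112. Gja3 read 3677, 3409 and 1531 (wt) against 145, 866 and 22.1 (Dbl) (-4.25 ± 1.18, adjusted p = 0.102), and its change was -5.57 without that array (adjusted p = 0.0432, or 0.0235 with all arrays and the block). In both genes Dbl replicates 1 and 3 lay far under Dbl replicate 2. Prox1, a homeobox factor needed for fiber elongation, had a change of -2.19 ± 0.60 (adjusted p = 0.0948, or 0.0109 with the block), and Caprin2, which binds RNA in fiber cells, was at 423, 4828 and 659.9 on the Dbl arrays, with only replicate 2 inside the wt range of 3704, 3731 and 5452. Without Dbl replicate 2 the list had 4 genes called lower and a median of -3.41, and with the replicate block 6 genes were lower. Without both replicate 3 arrays limma called 0, and the median was -2.49.

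The lens epithelium list had a median near 0, at -0.10, and 0.06 after scaling to the median. Of its 17 genes limma called 0, with 1 higher and 5 lower at an unadjusted p under 0.05, and 1 did not overlap with Dbl higher and 3 with Dbl lower. Pax6, the regulator of eye identity, read 1923, 1616 and 1934 on the wt arrays and 2086, 1830.5 and 2374 on the Dbl arrays, and the groups overlapped. Gja1, the connexin 43 of epithelial gap junctions, read 4439, 2870.5 and 6404 (wt) against 3159.7, 3245 and 6515 (Dbl). Sox2 read 3208, 1746 and 2779.6 (wt) against 2689, 2564 and 2833 (Dbl). These 3 genes were chosen after their values were seen and do not stand for the list. Its changes ran from -2.01 to 1.74, and the genes lower at an unadjusted p under 0.05 were 29.4% of it, against 9.61% of all genes. Npnt, a matrix ligand of integrins, had the smallest p of the list, with 649, 896 and 938 against 292, 394 and 428 (-1.16 ± 0.33, adjusted p = 0.111).

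**Figure D3:**
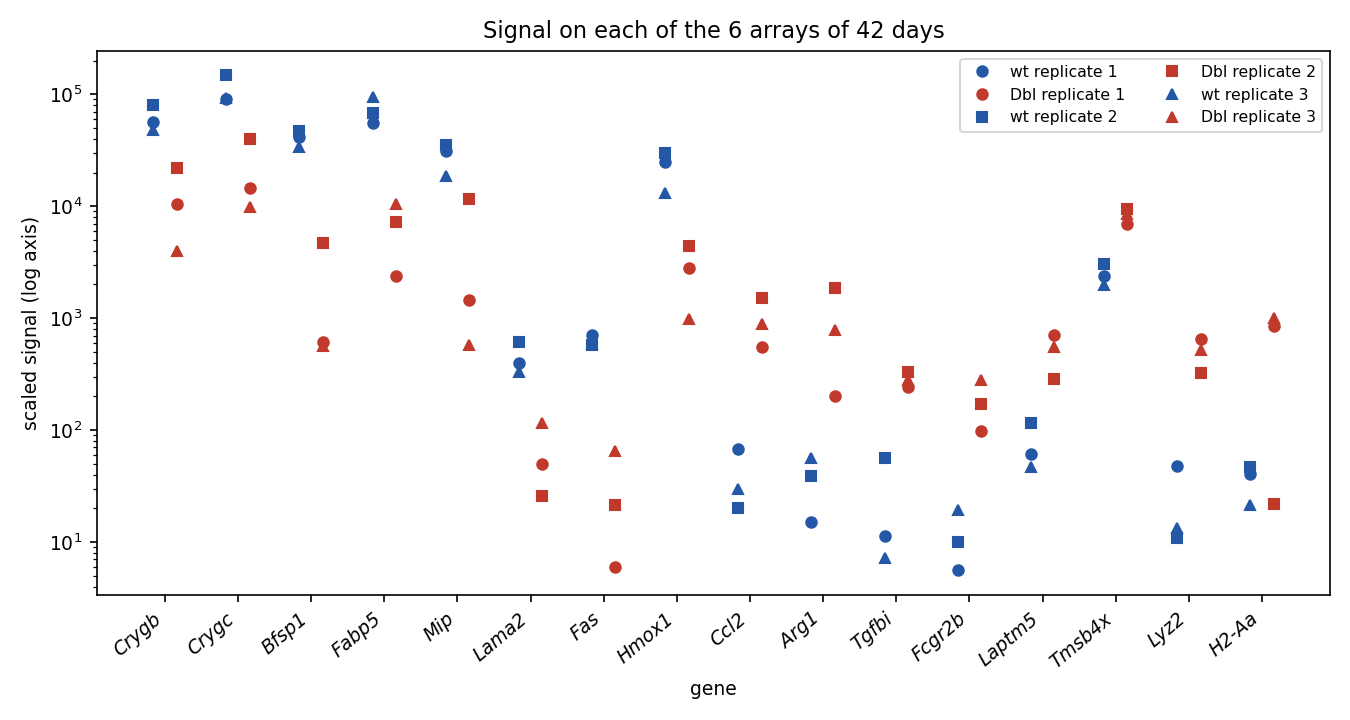
Scaled signal (y axis, log scale) of 16 genes on each of the 6 arrays of 42 days, wt in blue and Dbl in red, with 1 symbol shape per replicate number. The lens genes at the left are lower on every Dbl array, with Dbl replicate 2 (red square) the highest Dbl array for Crygb, Crygc, Bfsp1 and Mip, while H2-Aa at the right is high on Dbl replicates 1 and 3 only.

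Other transcripts fell as far as the fiber genes did. Tcp11 (chr17:28066747-28080726), known from testis, gave the largest change of the named genes, with 16522, 25057 and 17140 on the wt arrays and 82.7, 403 and 104 on the Dbl arrays (-6.99 ± 1.12, adjusted p = 0.0100). Its mean Dbl signal was 99.5-fold lower than its mean wt signal, though 2 of the Dbl arrays were near background. Eif5b, which joins the ribosomal subunits at the start of translation, read 7008, 6400 and 6377 (wt) against 332, 923 and 177 (Dbl) (-4.12 ± 0.73, adjusted p = 0.0186), while the gene's other probe set had a change of -1.40 that was not called. Pgap2, which remodels membrane anchors of proteins, read 4254, 2813 and 1585 (wt) against 177, 317 and 168 (Dbl) (-3.66 ± 0.79, adjusted p = 0.0360). Hmox1 (chr8:75093618-75100593), the heme oxygenase induced by oxidative stress, read 25020, 29791 and 13106 on the wt arrays and 2803, 4418 and 974 on the Dbl arrays (-3.22 ± 0.65, adjusted p = 0.0285). It was the called gene of 2 lists, oxidative stress defence (1 of 28 lower, 0 higher; 3 lower with the block) and hypoxia response and metallothionein (1 of 22 lower, 0 higher).

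For a further group of lowered genes the Dbl arrays were near background, so that the size of the change is not exact. Mxd1, a repressor that competes with Myc for its partner Max, read 792, 916 and 145 on the wt arrays and 12.4, 21.7 and 26.5 on the Dbl arrays (-4.62 ± 1.03, adjusted p = 0.0418; -2.01 and not called with low signals raised, and adjusted p = 0.0753 with the replicate block). Tlx3, a homeobox factor known from sensory neurons, read 742, 977 and 680.5 (wt) against 24.8, 136 and 39.4 (Dbl) (-3.95 ± 0.72, adjusted p = 0.0187), and Hoxd10, a homeobox gene of the trunk and limbs, 362, 381 and 243 (wt) against 16.3, 32.2 and 43.3 (Dbl) (-3.51 ± 0.70, adjusted p = 0.0260). Ceacam10, a secreted member of the carcinoembryonic antigen family, read 345, 319.5 and 948 (wt) against 6.85, 14.7 and 50.1 (Dbl) (-4.78 ± 1.01, adjusted p = 0.0337). The remaining named genes that fell were Tsr3, which modifies ribosomal RNA (-3.65), Sh3bgr (-3.27, adjusted p = 0.0367, or 0.0590 with the block) and Prxl2a, a peroxiredoxin-like protein, with 577, 421 and 691 on the wt arrays and 19.8, 24.5 and 74.2 on the Dbl arrays (-4.06, adjusted p = 0.0342, or 0.0518 with the block). The other probe set of Prxl2a read 425, 340.2 and 395 on the wt arrays and 398, 301 and 348 on the Dbl arrays and was not called (-0.15).

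Probe sets of 1 gene did not always run the same way. Affymetrix marks as r or i the probe sets that did not meet all of its design rules, and 17 of the 74 lowered probe sets (22.97%) and 0 of the 22 raised ones were of these types, against 9.31% of all tested. The called probe sets of Cryge, Prxl2a and P4hb are of type r, and those of Fgfr3 and C1qb of type i. Of the 37 called genes with several probe sets, 30 had all of them on one side and 7 had a probe set of opposite sign.

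The 4 receptors for fibroblast growth factors, which act in fiber cell differentiation, are described after their values were seen. Fgfr2 read 3389.8, 3291 and 3145 on the wt arrays and 469.6, 1220 and 911 on the Dbl arrays (-2.02 ± 0.44, adjusted p = 0.0367), and its other 2 probe sets changed by -1.93 and -1.85. Fgfr3 read 556, 602 and 353 (wt) against 154, 149 and 34.8 (Dbl) (-2.40 ± 0.54, adjusted p = 0.0418), with a second probe set, near background on all arrays, at 0.62. Fgfr1 read 365, 661 and 70.4 on the wt arrays and 680.3, 466 and 373 on the Dbl arrays, with overlap (0.93 ± 0.67, adjusted p = 0.533), and Fgfr4 was near background on all arrays (-0.30, not called). Ngef, also chosen after its values were seen, an exchange factor of the family named for Dbl, read 2199.7, 2535 and 2247 on the wt arrays and 555, 434 and 481 on the Dbl arrays (-2.25 ± 0.37, adjusted p = 0.0103). All 3 Dbl arrays were lower than all 3 wt arrays for the called probe sets of Fgfr2, Fgfr3 and Ngef. No called probe set had overlapping groups, so this separation adds nothing to the calls. Also chosen after their values were seen were Cpt2, which imports fatty acids into mitochondria (-2.92 ± 0.46, adjusted p = 0.0100), and Mocs2, which makes molybdenum cofactor (-2.95 ± 0.45, adjusted p = 0.0100), and each was still called in 4 of the 6 fits that leave out 1 array of 42 days.

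The largest rise among named genes was that of Ccl2 (chr11:82035577-82037452), the chemokine that attracts monocytes. It read 67.6, 20.0 and 30.0 on the wt arrays and 551, 1526 and 886 on the Dbl arrays, a log2 fold change of 4.72 ± 0.75 (adjusted p = 0.0100), and it was still called without Dbl replicate 2 (4.35, adjusted p = 0.0356). The wt arrays were near background, and with low signals raised the change was 2.70 and not called. The call held in 5 of the 6 fits that leave out 1 array of 42 days. Ccl2 was the 1 called gene, higher, of the 35 measured chemokines and cytokines (median -0.39) and of the 22 angiogenic factors (median 0.13). Ccl9, another chemokine of myeloid cells, read 60.4, 103 and 120.2 (wt) against 825, 1839 and 536 (Dbl) (3.36 ± 0.95, adjusted p = 0.107), without overlap and not called.

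Of 27 measured macrophage markers 1 was called higher and 0 lower, 10 did not overlap with Dbl higher and 0 with Dbl lower, and the median was 0.85 (0.93 without Dbl replicate 2); the replicate block gave 2 higher. With low signals raised the median was -0.06, against -0.20 over all genes, and limma called 0. Their summed signal was 6977, 7062 and 5690 on the wt arrays and 14363, 9721 and 18881 on the Dbl arrays. Fcgr2b (chr1:170960558-170976071), a receptor for immunoglobulin G that restrains myeloid and B cells, was at background on the wt arrays with 5.63, 10.1 and 19.4 and read 97.4, 171 and 279.6 on the Dbl arrays (4.01 ± 0.74, adjusted p = 0.0194). With low signals raised its change was 0.32 and not called. Lyz2, the lysozyme of macrophages, read 47.7, 10.9 and 13.3 (wt) against 650.4, 327 and 519 (Dbl) (4.65 ± 1.11, adjusted p = 0.0564, or 0.0158 with the block). A probe set shared by Lyz1 and Lyz2 was called higher, with 20.4, 29.0 and 11.3 on the wt arrays and 913, 863 and 307 on the Dbl arrays (5.05 ± 1.01, adjusted p = 0.0275). Cd53, a tetraspanin of white blood cells, read 42.3, 10.4 and 6.86 (wt) against 231, 293 and 433 (Dbl) (4.41 ± 1.13, adjusted p = 0.0747). Not every marker followed: Adgre1, which encodes F4/80, read 56.5, 29.2 and 33.0 (wt) against 67.2, 88.9 and 25.9 (Dbl), and Ptprc, which encodes CD45, 20.9, 98.6 and 7.51 (wt) against 48.2, 6.66 and 51.2 (Dbl), both near background in either genotype.

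Genes outside the list that white blood cells express were called in both directions. Lower were Spib and Skap2, named after their values were seen. Spib read 483, 709 and 369 on the wt arrays and 155, 159 and 72.6 on the Dbl arrays (-2.05, adjusted p = 0.0285). Skap2 read 1596, 1581 and 2641 (wt) against 493, 209 and 406 (Dbl) (-2.44, adjusted p = 0.0103). The genes below were called higher. Arg1 (chr10:24915207-24927470), the arginase of alternatively activated macrophages and liver, read 15.04, 38.7 and 56.1 on the wt arrays and 204, 1853 and 789 on the Dbl arrays (4.39 ± 0.98, adjusted p = 0.0418), with Dbl replicate 2 the highest, and it was not called without that array (adjusted p = 0.144). Laptm5, a lysosomal protein of blood cells, read 61.1, 115 and 47.1 (wt) against 711, 288 and 550.0 (Dbl) (2.80 ± 0.60, adjusted p = 0.0346), and its second probe set changed by 1.80 without being called. Lcp1, the plastin that bundles actin in white blood cells, read 29.1, 92.5 and 40.1 (wt) against 277, 337 and 334 (Dbl) (2.72 ± 0.54, adjusted p = 0.0254), with a second probe set, near background on all arrays, at 0.23. Srgn, a proteoglycan of secretory granules, was named after its values were seen and read 10.4, 18.3 and 35.2 (wt) against 89.8, 145 and 260.0 (Dbl) (2.99 ± 0.67, adjusted p = 0.0418). Each of the 4 raised genes was higher on every Dbl array than on any wt array. Every called probe set had such a separation, so it adds nothing to the calls.

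Antigen presentation split the Dbl arrays. Of 34 measured genes limma called 0, with 7 higher and 2 lower at an unadjusted p under 0.05. The median was 0.76, and 1.30 without Dbl replicate 2. Summed over the list, the signal was 9602, 10174 and 7561 on the wt arrays and 32374, 10278 and 21836 on the Dbl arrays, so that Dbl replicate 2 lay at the wt level and 26 of the 34 genes were lower on it than on both other Dbl arrays. B2m, the light chain that class I molecules share, read 299, 509.9 and 466 on the wt arrays and 4486, 680.1 and 3261 on the Dbl arrays. Its change was 2.38 ± 0.71 (adjusted p = 0.124) and 3.21 without Dbl replicate 2 (adjusted p = 0.0476). Irf9, the DNA-binding partner of STAT proteins in the interferon response, read 60.9, 87.1 and 176 (wt) against 731, 164 and 928 (Dbl), a change of 2.30 that became 3.08 without that array (adjusted p = 0.0439). These were the 2 genes of the list called higher without Dbl replicate 2.

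The class II gene H2-Aa, chosen after its values were seen, showed the same split, with 40.2, 47.0 and 21.3 on the wt arrays and 856, 21.7 and 1003 on the Dbl arrays. The class I heavy chain H2-K1 had 1 of its 3 probe sets called, with 39.0, 107 and 70.5 (wt) against 851, 322 and 507 (Dbl) (2.96 ± 0.67, adjusted p = 0.0449, or 0.0565 with the block), of a type that matches several class I genes. Another probe set read 1074, 1519.8 and 997 (wt) against 5523, 1942 and 3645 (Dbl) and was not called (1.53, adjusted p = 0.196). A probe set shared by H2-T9, H2-T10 and H2-T22 was higher on all 3 Dbl arrays, with 56.6, 26.9 and 35.9 on the wt arrays and 329.9, 232 and 404 on the Dbl arrays (3.05 ± 0.51, adjusted p = 0.0120).

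In the complement list, with 13 measured genes, 1 gene was called, C1qb, and its probe sets went opposite ways. The called probe set, of type i, read 4261, 2635 and 2903 on the wt arrays and 300.3, 582 and 256 on the Dbl arrays (-3.17 ± 0.61, adjusted p = 0.0238). The other read 204, 279 and 213 (wt) against 1439.9, 1172 and 802 (Dbl) (2.27 ± 0.95, adjusted p = 0.284). C1qa and C1qc, which encode the other chains of C1q, had changes of 2.18 ± 0.72 and 1.62 ± 0.61 and were not called, the same side as the second probe set. The direction of C1qb is therefore not settled by these arrays.

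**Figure D4:**
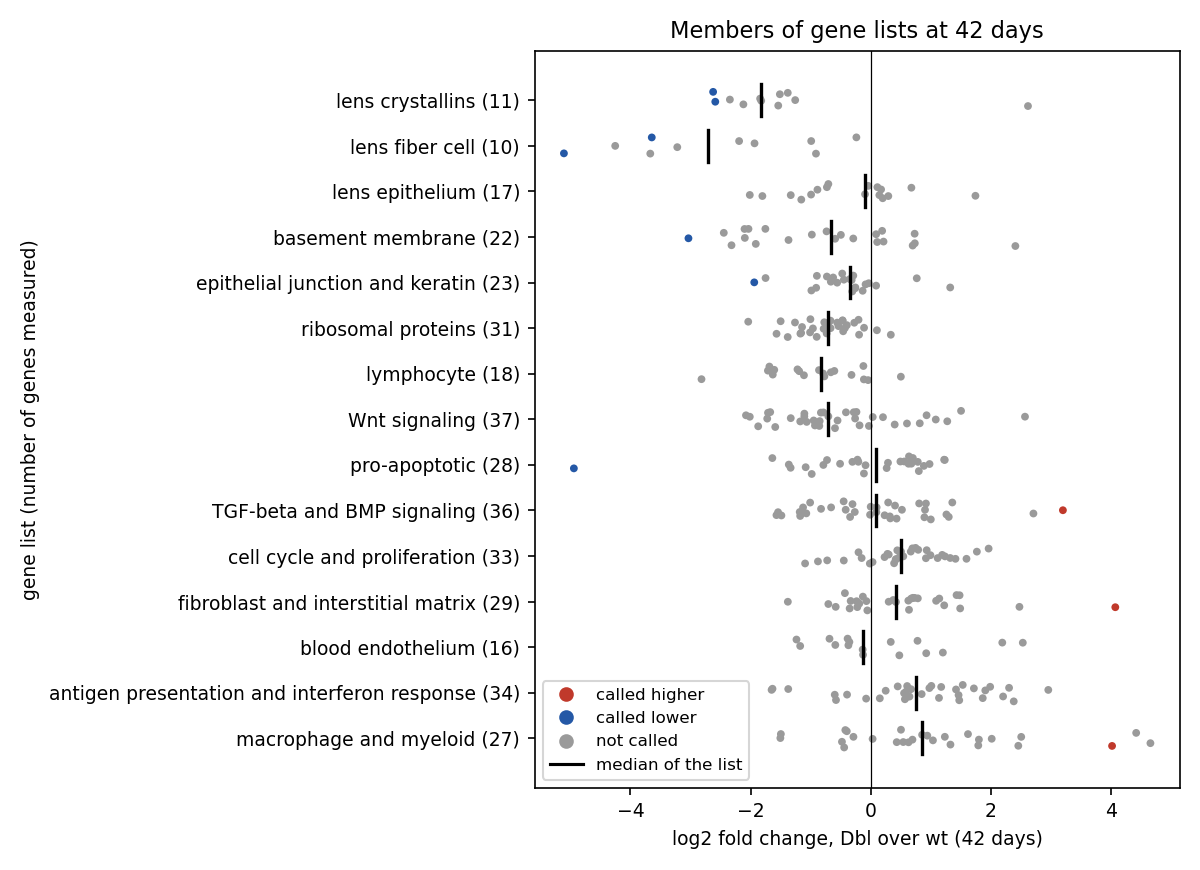
Log2 fold change of Dbl over wt at 42 days (x axis) for each measured gene of a selection of the lists (y axis, with the number of genes), 1 point per gene, coloured by its call, with the median of each list as a bar. Crystallins and fiber cell genes lie mostly below 0, macrophage and antigen presentation genes mostly above, and few points of any list are called.

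Matrix lists had medians of opposite sign for the capsule and for the stroma. Of 22 basement membrane genes 1 was called lower and 0 higher, 7 did not overlap with Dbl lower, and the median was -0.67; the replicate block gave 2 lower. Lama2 (chr10:26981285-27617191), the laminin chain best known from muscle and nerve, read 399, 618 and 331 on the wt arrays and 50.3, 25.7 and 115 on the Dbl arrays (-3.03 ± 0.65, adjusted p = 0.0344). Without Dbl replicate 2 its change was -2.51 (adjusted p = 0.116). Col4a1, a chain of the type IV collagen of the lens capsule, read 7127, 6035 and 7991 (wt) against 1408, 4192 and 1515 (Dbl) (-1.75 ± 0.56, adjusted p = 0.147), the Dbl arrays all below the wt arrays and replicate 2 nearest to them.

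Of 29 genes of fibroblasts and interstitial matrix 1 was called higher and 0 lower, with a median of 0.42 that was -0.11 without both replicate 3 arrays. The replicate block gave 2 higher. At an unadjusted p under 0.05, 5 of the 29 were higher (17.2%, against 4.76% of all genes) and 0 lower (against 9.61%). Tgfbi (chr13:56609586-56639359), a secreted matrix protein induced by TGF-beta, was near background on the wt arrays with 11.4, 56.9 and 7.26 and read 240.4, 328 and 282 on the Dbl arrays (4.07 ± 0.91, adjusted p = 0.0418). The 3 Dbl arrays were close to each other and the wt arrays were not, and with low signals raised the change was 1.01 and not called. Fbln2, a matrix glycoprotein, read 123, 147 and 162 (wt) against 727, 717 and 958 (Dbl) (2.47 ± 0.62, adjusted p = 0.0715, or 0.0337 with the block), again without overlap. Fn1, Col1a2 and Acta2, markers of fibroblasts and myofibroblasts that were chosen after their values were seen, had changes of 0.37, -0.24 and -0.07, none of them called. Of 19 matrix proteases and inhibitors limma called 0, with 2 higher and 2 lower at an unadjusted p under 0.05. Timp1, an inhibitor of metalloproteinases, read 537, 872 and 1077 on the wt arrays and 3654, 3246 and 7313 on the Dbl arrays (2.48 ± 0.64, adjusted p = 0.0766, or 0.0434 with the block), and Mmp2, a gelatinase, read 147, 194 and 166 (wt) against 11.6, 11.7 and 39.4 (Dbl) (-3.26 ± 0.82, adjusted p = 0.0713).

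Cell junctions showed 1 called gene of 23, Cdh3, the placental cadherin, with 799.9, 648 and 470.3 on the wt arrays and 314, 194 and 70.8 on the Dbl arrays (-1.94 ± 0.43, adjusted p = 0.0418). Cdh1, the epithelial cadherin, read 798, 806 and 541 (wt) against 353, 379.8 and 568 (Dbl) (-0.73 ± 0.32, adjusted p = 0.316), the groups overlapping at replicate 3. Of 9 transcription factors of the epithelial-mesenchymal transition (EMT) limma called 0, with 0 higher and 3 lower at an unadjusted p under 0.05, and the median was -1.03, or -0.59 after quantile normalization and -0.40 with low signals raised. Snai2 and Twist2, repressors in that transition, had changes of -1.03 ± 0.44 and -1.65 ± 0.59, both to the lower side.

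Of the genes that act on actin, Tmsb4x was called higher. Tmsb4x (chrX:167207093-167213479), thymosin beta 4, which holds actin monomers in reserve, read 2379.5, 3053 and 1989 on the wt arrays and 6874, 9409 and 8543 on the Dbl arrays (1.75 ± 0.34, adjusted p = 0.0239). It was not called without Dbl replicate 2 (adjusted p = 0.0685), although every Dbl array was more than 2-fold above every wt array. Vcl, vinculin of focal adhesions, read 316, 146 and 216 (wt) against 940.3, 562 and 963 (Dbl) (1.89 ± 0.46, adjusted p = 0.0584), and Msn, moesin, which links actin to the membrane, read 270.1, 139 and 183 (wt) against 836, 668 and 543 (Dbl) (1.82 ± 0.51, adjusted p = 0.104).

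Other named genes were also called higher. Ppic, the cyclophilin C that isomerizes proline bonds, was at background on the wt arrays with 13.6, 13.6 and 16.9 and read 196, 353 and 417 on the Dbl arrays (4.40 ± 0.69, adjusted p = 0.0100), or 1.14 and not called with low signals raised. Arcn1, a subunit of the COPI coat of Golgi vesicles, read 112, 105 and 242 (wt) against 859, 731 and 951 (Dbl) (2.58 ± 0.36, adjusted p = 0.00794), and it was called in 5 of the 6 fits without 1 array of 42 days. One of its other probe sets, of type r, went the other way (-1.24). Meg3, an imprinted long noncoding RNA, read 63.6, 100.03 and 79.0 (wt) against 679, 1336 and 441 (Dbl) (3.21 ± 0.60, adjusted p = 0.0217), while its second probe set had a change of 0.11. Pabpn1, which binds poly(A) tails in the nucleus, had the smallest change called higher, 701, 644 and 759.8 against 1600.4, 2311 and 1721 (1.40 ± 0.27, adjusted p = 0.0224). The others were Rnf149, a ubiquitin ligase (2.88), Ints5, of the Integrator complex (2.79), Pkdcc, a secreted kinase (2.73), and Dpm2, a subunit of the enzyme that makes a mannose donor (2.68, against 0.11 for its other probe set).

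Apoptosis genes were represented by Fas (chr19:34290647-34327775), the death receptor, which was the 1 gene called, lower, of 28 pro-apoptotic genes (median 0.09). It read 709, 580.1 and 584 on the wt arrays and 5.95, 21.6 and 64.7 on the Dbl arrays (-4.94 ± 1.11, adjusted p = 0.0430), and it was not called without Dbl replicate 2 (adjusted p = 0.0878). The 3 wt arrays were close to each other, while the Dbl arrays were near background, and with low signals raised the change was -2.40 and still called. Of 18 anti-apoptotic genes limma called 0, with 1 higher and 2 lower at an unadjusted p under 0.05. Bcl2, which protects mitochondria, had a change of -1.07 ± 0.33 (adjusted p = 0.137), with 988, 843 and 716 on the wt arrays and 340.2, 383 and 499 on the Dbl arrays.

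Proliferation genes set Dbl replicate 2 apart. The summed signal of 33 cell cycle genes was 10191, 9936 and 9410 on the wt arrays and 8712, 38011 and 11028 on the Dbl arrays of 42 days. Dbl replicates 1 and 3 were thus at the wt level, and 31 of the 33 genes were higher on replicate 2 than on both other Dbl arrays, with a median log2 difference of 2.10. On the Dbl arrays of 2 days the sums were 39945, 8098 and 57400, where replicate 2 was the low one, and on the wt arrays of 2 days 13020, 40828 and 13527. Of the 33 genes limma called 0 at 42 days, with 2 higher and 1 lower at an unadjusted p under 0.05. The list's median was 0.50 with all arrays and -0.19 without Dbl replicate 2. Tk1, a thymidine kinase of dividing cells, read 235, 121 and 103 (wt) against 360.0, 974 and 329 (Dbl) (1.76 ± 0.79, adjusted p = 0.322). The probe sets of Mki67, the proliferation antigen Ki-67, had changes of 3.84 and -0.15, neither called. Dbl replicate 2 also stood above the other Dbl arrays in fiber cell genes, by a median of 3.04 on the log2 scale, and in crystallins, by 0.97, and below them in antigen presentation, by a median difference of -1.30. The sign of the cell cycle median at 42 days thus depended on this array.

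**Figure D5:**
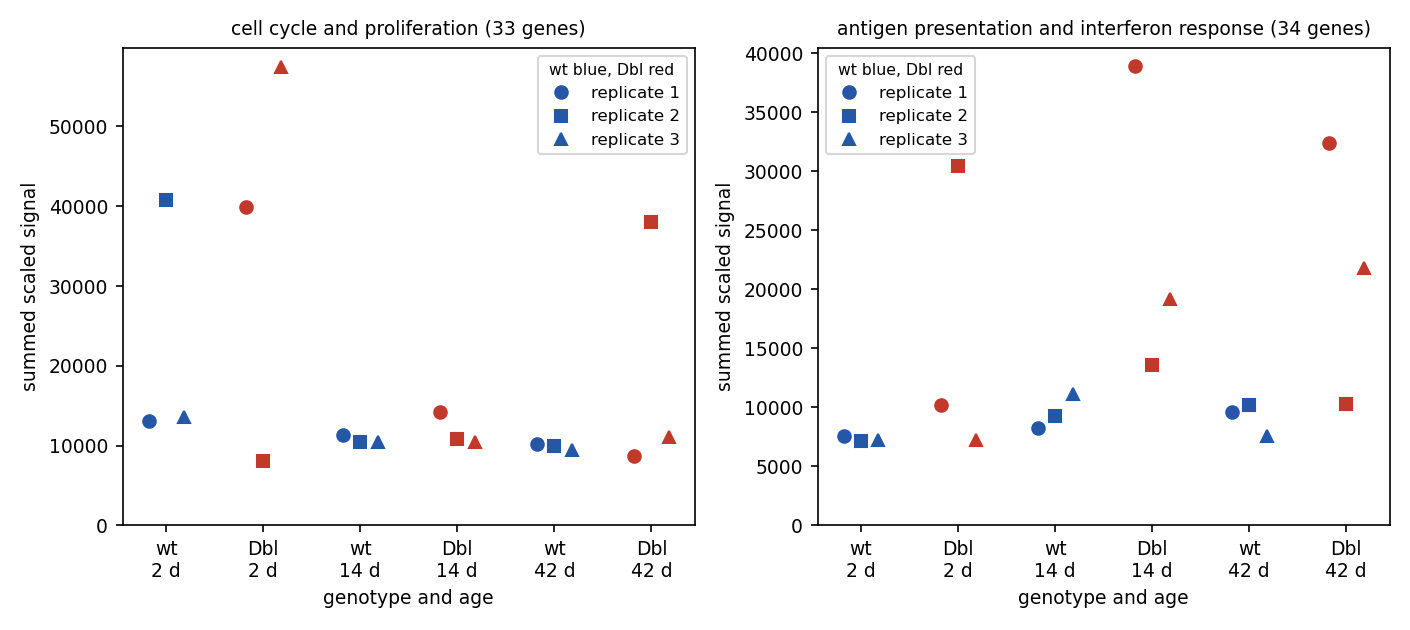
Summed scaled signal (y axis) of the 33 cell cycle genes (left) and the 34 antigen presentation genes (right) on each of the 18 arrays, by genotype and age (x axis), wt in blue, Dbl in red, with 1 symbol shape per replicate number. At 42 days Dbl replicate 2 is at 38011 for cell cycle genes where replicates 1 and 3 are at 8712 and 11028, and Dbl 2 days replicate 2 is placed the other way round.

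Signaling lists gave few calls. Of 36 genes of TGF-beta and BMP signaling 1 was called higher, Bmpr1a, a receptor for bone morphogenetic proteins, which was at background on the wt arrays with 7.51, 20.3 and 11.8 and read 140.3, 108 and 91.4 on the Dbl arrays (3.20 ± 0.70, adjusted p = 0.0392). These signals straddle the background level, and with low signals raised to the 40th percentile of their array the difference was -0.13 and not called. Smad1, which carries the signal of those receptors, read 3146, 3329 and 4917 (wt) against 1063, 1385 and 1410.5 (Dbl) (-1.54 ± 0.42, adjusted p = 0.0913). Of 37 genes of Wnt signaling limma called 0, with 3 higher and 8 lower at an unadjusted p under 0.05 and a median of -0.71, and Sfrp1, a secreted Wnt antagonist of the lens epithelium, read 1615, 1481 and 2144 on the wt arrays and 345, 852 and 265 on the Dbl arrays (-2.01 ± 0.69, adjusted p = 0.177). Of 18 genes of Notch signaling limma called 0 as well, with 1 higher and 1 lower at an unadjusted p under 0.05 and a median of 0.25. Of 27 immediate early and JNK/NF-kB genes limma called 0, with 3 higher and 2 lower at an unadjusted p under 0.05 and a median of 0.41; Fosb, an AP-1 subunit, had the smallest p (-1.43 ± 0.36, adjusted p = 0.0713).

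Ribosomal and metabolic lists gave 1 call. The 31 ribosomal protein genes had a median of -0.71, 12 of them did not overlap with Dbl lower and 0 with Dbl higher, and limma called 0, with 0 higher and 9 lower at an unadjusted p under 0.05. Quantile normalization brought the median to -0.31. Rplp0, a stalk protein of the large subunit, read 46178, 50750 and 49339 on the wt arrays and 15876, 33774 and 26661 on the Dbl arrays (-1.01 ± 0.38, adjusted p = 0.223). In protein folding 1 of 40 genes was called, lower (2 with the block), P4hb, the protein disulfide isomerase, with 6531, 7272 and 6668 (wt) against 1189, 2092 and 778 (Dbl) (-2.45 ± 0.42, adjusted p = 0.0131). This probe set is of type r, and the second of P4hb had a change of -0.20. Of 17 glycolysis genes limma called 0 with all arrays, with 0 higher and 2 lower at an unadjusted p under 0.05; Pgam2, the phosphoglycerate mutase of muscle, read 5735, 6020.4 and 6839 (wt) against 34.6, 1239 and 91.2 (Dbl) and was called lower without Dbl replicate 2 (-6.78, adjusted p = 0.0407) and with the block (adjusted p = 0.0109).

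Markers of tissues around the lens were checked, since a dissected lens can carry them. Limma called 0 of 19 photoreceptor genes, with 2 higher and 0 lower at an unadjusted p under 0.05 and a median of 0.65. Their summed signal was 11234, 11912 and 11234 on the wt arrays and 23849, 23661 and 18305 on the Dbl arrays, and 5 of the 19 did not overlap with Dbl higher. Of 10 genes of retinal pigment epithelium, iris and ciliary body 1 was called lower, Oca2, a melanosome transporter, with 351, 521 and 556 (wt) against 118, 139 and 169.9 (Dbl) (-1.73 ± 0.34, adjusted p = 0.0254), and the list's median was 0.51. In the corneal list 1 of 15 was called lower, Ivl, the involucrin of surface epithelia (-3.26 ± 0.73, adjusted p = 0.0418, or 0.0587 with the block), with Dbl signals near background. In the skeletal muscle list 1 of 20 was, Casq1, the calcium store protein calsequestrin, with 2540.2, 3346 and 5064 (wt) against 413, 614 and 508 (Dbl) (-2.80 ± 0.51, adjusted p = 0.0187). Limma called 0 of 16 blood endothelium genes, among them Cdh5, the vascular cadherin, with 16.5, 19.4 and 13.5 on the wt arrays and 53.3, 112 and 139 on the Dbl arrays (2.53 ± 0.65, adjusted p = 0.0766), with 2 genes of the list higher and 2 lower at an unadjusted p under 0.05. Of 18 lymphocyte genes limma called 0, with 0 higher and 6 lower at an unadjusted p under 0.05 and a median of -0.83, or -0.28 with low signals raised. Limma also called 0 in the lists of neutrophils and mast cells (15 genes, median -0.52), red cells (8, -0.58, although their summed signal was 8059 to 9761 on the wt arrays and 13037 to 17533 on the Dbl arrays), lymphatic endothelium (5, 0.11), antiangiogenic factors (11, 0.09), inner retina (17, -0.06), CDK inhibitors (7, -0.71) and cholesterol synthesis (18, -0.09), where at an unadjusted p under 0.05 no list had more than 1 gene higher or 4 genes lower. Low signals held much of the other list medians too: with them raised, the median was -0.30 for basement membrane, 0.10 for fibroblasts and interstitial matrix, -0.24 for proteases and for chemokines, -0.20 for angiogenic factors, 0.38 for antigen presentation, -0.31 for Wnt signaling and -0.02 for immediate early genes. The -0.24 of proteases and chemokines is the value of a gene under the floor on all 6 arrays, and measures no difference of genotype. With the replicate block 1 of the 5 lymphatic endothelium genes was called lower. The part of such tissues in the differences above was not tested.

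Genes that the study lists by function were also tallied; since it chose them on these samples, their counts are not independent evidence of a direction. Of 11 matched probe sets of eye development 3 were lower and 0 higher (Bfsp1, Crygb and Crygc), and the median was -2.35. The one listed for Cryab is annotated to Faf1, and those for Crygd and Crygf to Cryge. Of 18 genes of adhesion and extracellular matrix 1 was higher (Tgfbi) and 2 were lower (Lama2 and Ctnna2). Ctnna2, a catenin of neuronal junctions, read 2912, 2042 and 3500.3 on the wt arrays and 784, 816 and 1069 on the Dbl arrays (-1.64 ± 0.34, adjusted p = 0.0316). Of 11 genes of the TGF-beta category 1 was higher (Bmpr1a), of 8 angiogenesis genes 1 was higher (Ccl2) and of 7 matched positive regulators of apoptosis 1 was lower (Fas). For 14 Wnt genes, 8 Notch genes and the 2 matched of 5 printed negative regulators of apoptosis limma called 0. The last count does not speak for the unmatched genes of that category. A called probe set without a symbol of its own read 153, 271 and 204 on the wt arrays and 3537, 3838 and 7787 on the Dbl arrays (4.54 ± 0.82, adjusted p = 0.0187). Whether it measures a printed gene was not tested. Of 18 matched genes of the EMT list 2 were higher (Bmpr1a and Tgfbi) and 1 was lower (Lama2).

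The genes called at 42 days had leaned the same way at the earlier ages. All 96 probe sets had the same sign at 2 days and 94 of them at 14 days, against 74.4% and 66.6% of all probe sets; the wt and Dbl arrays of each age are separate, but the fit shares its spread over all 18. Of the 96, 14 were also called at 2 days and 22 at 14 days, counts given here without the share of all probe sets called at those ages. Dbl 42 days replicates 1 and 2 each correlated best with a Dbl array of 2 days (r = 0.958 and 0.951). An exchange of labels, which was not tested, would make the agreement with 2 days partly one within an age. The 22 higher probe sets had a median log2 fold change of 2.98 at 42 days, 1.54 at 2 days and 2.24 at 14 days, and the 74 lower ones had medians of -2.79, -1.77 and -1.65. The 42 days contrast chose these probe sets, so the medians of the 3 ages are no comparison of ages. Ccl2 was at 5.72 at 2 days and 6.19 at 14 days, Bfsp1 at -3.71 and -4.27, and Crygc at -1.77 and -2.25.

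A difference particular to 42 days was sought with the contrast of the Dbl effect at 42 days against the mean of those at 2 and 14 days. Limma called 0 of 12422 probe sets for it, with 321 at an unadjusted p under 0.05 and a lowest adjusted p of 0.999. The smallest p-values were those of Ppic, with a log2 fold change of 0.45 at 2 days, 0.80 at 14 days and 4.40 at 42 days, and of Arcn1, with 0.83, 0.54 and 2.58. Stoml2, a mitochondrial membrane protein, followed with 0.24, -0.67 and 1.29, and Col19a1, a collagen of basement membrane zones, with -0.36, 2.13 and -2.41. At 42 days Stoml2 was not called (adjusted p = 0.0553) but was with the replicate block (adjusted p = 0.0317). Pabpn1 stood at 0.44, 0.11 and 1.40. None of these differences between ages passed the test.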

How the data were processed

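RNA of pooled lenses (4 to 8 per pool, stored in RNAlater, RNeasy kit) was hybridised to Murine Genome U74Av2 arrays, with 3 pools in each of 6 groups. The deposited values are linear signal intensities that the authors made with MAS 5.0, per the labels' processing notes; a further normalization named in the methods was not seen in them. Here each array was scaled to a 2% trimmed mean of 500, signals under 1 were set to 1 (64 values at 42 days) and log2 was taken. The 66 control probe sets were left out. Group means of all 18 arrays were fitted with limma 3.58.1 (R 4.3.3; eBayes with a variance trend), and p-values were adjusted by Benjamini-Hochberg over 12422 probe sets. The fit was tested on simulated data. Python 3.11.15 was used for tables and figures.

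Symbols came from the platform annotation, updated through RefSeq: 10833 probe sets had 1 symbol (8251 genes), 396 several and 1193 none. Lists were counted with 1 probe set per gene, that of the highest mean signal. Named genes were the 15 largest called changes each way (1 symbol, no overlap, higher group above the median probe set), up to 4 genes of smallest p in each list, those of the study's tables, and the 5 smallest p for a difference between ages; other genes are marked where named. Results of 1 list are not reported here. The comparison, the lists and the named genes were chosen with earlier results of these data known.

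Replicate numbers are shared by wt and Dbl arrays. At 42 days the deviations of same-numbered arrays from their group means correlated at 0.332, 0.153 and 0.425 (6565 probe sets). Every pair being above 0.1, the numbers were taken as possible pairs in this comparison. Calls, SE and adjusted p-values nevertheless come from the fit without pairs, unless the block is named. The deviations correlated at 0.652, 0.537 and 0.493 at 14 days and at 0.347, -0.429 and 0.0607 at 2 days. At 2 days the numbers did not pair the arrays, although the block was fitted in every age. Where they change a call, values with the replicate block are given for most lists and named genes. No detection calls were used. The number of arrays per group limits precision. P-values measure the spread between pools. Alternatives were other scalings, quantile normalization, a floor, a filter, other fits, and arrays left out singly or together.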

Additional observations from a re-analysis of the deposited data

How the results depend on the processing

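Counts of calls moved with the processing. Leaving arrays out could not change the direction of a called probe set, since its Dbl and wt arrays did not overlap. Of the 42 results for called named genes, 41 kept their sign under every alternative, none was called under all of them and 33 were called under most. The exception was Bmpr1a, at -0.13 (log2) with the floor at the 40th percentile; its wt and Dbl signals then lie at or near that floor. The 22 probe sets higher became 5 with that floor, 0 without Dbl replicate 2 and both replicate 3 arrays, 1 without both replicate 3 arrays, 50 with the replicate block within age, and 1 to 34 with 1 array left out. The 74 lower became 40 with median scaling, 0 and 2 without those arrays, 157 with the replicate block, and 1 to 109 with 1 array left out. The 96 called in all became 0, 3 and 207 in these fits and 2 to 143 with 1 array left out; the lowest was without wt 42 days replicate 2 and the highest without Dbl 14 days replicate 1. The replicate block across ages gave 29 higher and 96 lower. The 18 list genes called became 11 with median scaling, 0 without Dbl replicate 2 and both replicate 3 arrays, 0 without both replicate 3 arrays, 35 with the replicate block, and 0 to 27 with 1 array left out. By a 1.5-fold difference of means with no overlap, the 809 higher became 1365 without Dbl replicate 2, 1665 without both replicate 3 arrays and 496 at a ratio of at least 2. The 1639 lower became 1018 with the floor, 870 with the filter on dim probe sets and 3598 without both replicate 3 arrays. With fewer arrays a group separates without overlap more easily, and otherwise the cause was not tested. The contrast between ages gave 0 calls in every fit. Low signals limit the size of most rises: 18 of the 22 raised probe sets had a wt mean near background, and 30 of the 74 lowered ones a Dbl mean near it.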
